A study of Mus musculus with 43 samples.

Results

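Peroxisome biogenesis and peroxisomal lipid oxidation were followed in mouse inguinal white adipose tissue through 36 listed genes. Of these, 13 encode peroxins and 23 encode peroxisomal lipid enzymes and transporters. The genes were taken by name, with earlier results of these data known. A row was found for 35 of them among the 22622 genes of each table, and no row matched Acot3.

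The study profiled bulk RNA from 43 libraries in 9 groups to compare the pathways behind beige adipocytes at weaning and in adult cold. At postnatal day 28 (P28), C57BL/6J wild-type mice lived at 22 C (n = 4) or at 30 C (n = 4), while TrkA-flox Th-cre mice lived at 22 C (n = 4). At P25, Bcl6-flox (n = 7) and Bcl6-flox Prx1-cre mice (n = 8) were kept at 22 C. At 9 weeks, Bcl6-flox (n = 4) and Bcl6-flox Prx1-cre mice (n = 4) were at 4 C, and C57BL/6J wild-type mice at 22 C (n = 4) or 4 C (n = 4). The labels used here give neither the duration of cold nor the animals' sex. TrkA is the receptor for nerve growth factor, and Th-cre acts in catecholaminergic cells such as sympathetic neurons. Bcl6 represses transcription, and the Prx1-cre transgene is active in the mesenchyme of the limb bud and cells that descend from it, among them cells of inguinal fat. The controls of the TrkA comparison carried no floxed allele, and they are the same 4 wild-type libraries used for the 30 C comparison.

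Peroxisomes shorten very-long-chain, branched and dicarboxylic fatty acids, make the first steps of ether lipids, and break down the hydrogen peroxide that their oxidases release. Peroxins build the organelle: some place its membrane proteins, some import its enzymes from the cytosol, and some elongate and divide it. Thermogenic fat is rich in peroxisomes, and many peroxisomal lipid enzymes are known targets of the fatty acid receptor PPARα.

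The values were normalized counts, and library totals ran from 4262000 to 26490000 between tables, so levels were compared only within a table. Original read depth is unknown. All 7 measured adipocyte markers were present in every group. Ucp1, the uncoupling protein of thermogenic fat, fell by 4.06 on the log2 scale at 30 C, fell by 1.96 in TrkA-flox Th-cre, fell by 4.18 at P25 and fell by 2.12 at 9 weeks with the label Prx1-cre, and rose by 6.17 in wild-type adults at 4 C. Cidea, a lipid droplet protein of thermogenic adipocytes, fell by 1.57 at P25 and fell by 2.13 at 9 weeks with the label Prx1-cre, and passed the test in no other comparison. Transcript of the targeted gene Bcl6 went against the label: its mean was 825 ± 340.0 (SD, n = 7) in Bcl6-flox and 2714 ± 584 (n = 8) in libraries labelled Prx1-cre at P25, and 1995 ± 392 and 11609 ± 2338 (n = 4 each) at 9 weeks. Whole-gene counts do not resolve the floxed exons. At P25 the columns are headed WT or KO, and their codes match no sample title. The WT columns were taken as Bcl6-flox and the KO columns as Prx1-cre because they number 7 and 8, as those samples do. Whether the libraries of a group came from separate animals is not stated, so a p-value here reflects only the spread among these libraries, which may be technical.

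Most of the measured peroxisomal genes did not pass the test in any comparison, and those that did were mainly a small set of lipid-handling genes (the heat map of log2 fold changes). A gene was called when limma's Benjamini-Hochberg adjusted p over all tested genes was under 0.05. Fold changes are on the scale of log2(value + 1), with their standard error (SE).

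At P28, 6 of the 33 tested members fell at 30 C against 22 C and 0 rose. Over all genes of that table, 3.17% fell, 1.29% rose and 4.45% changed. In TrkA-flox Th-cre, 2 of 33 members fell and 0 rose, where 1.32% of all genes fell, 1.34% rose and 2.66% changed. At P25, 9 of 34 members fell and 1 rose in libraries labelled Prx1-cre, where 1.97% of all genes fell, 1.56% rose and 3.53% changed. At 9 weeks and 4 C, 11 of 35 members fell and 1 rose in libraries labelled Prx1-cre, where 5.46% of all genes fell, 9.01% rose and 14.5% changed. In adult wild-type fat, 3 of 35 members rose at 4 C and 0 fell, where 2.03% of all genes rose, 2.44% fell and 4.47% changed. Differences between comparisons were not tested.

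**Figure D1:**
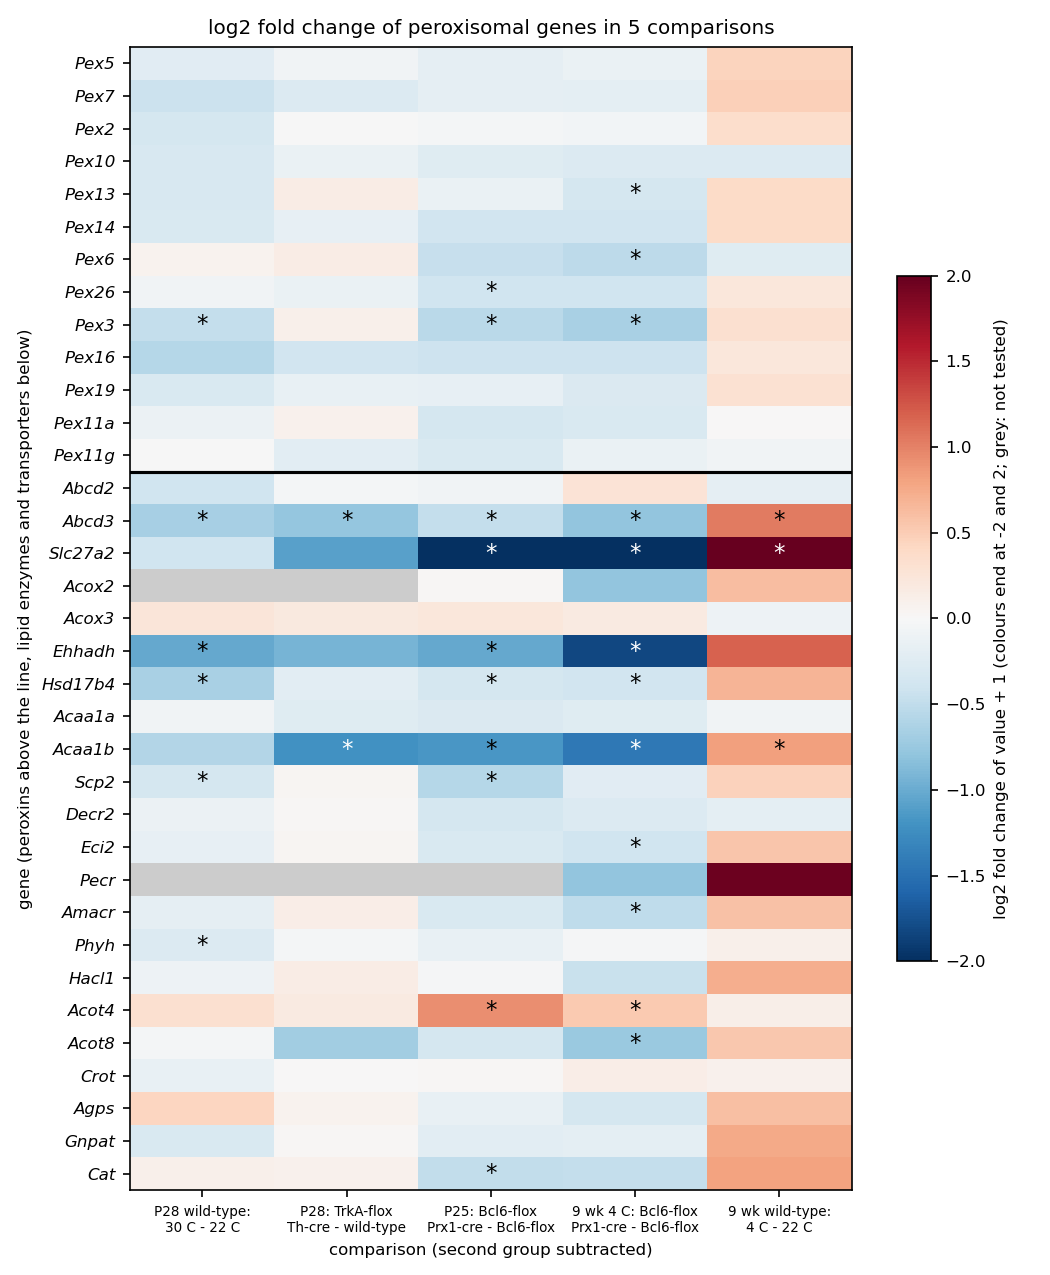
Log2 fold change of value + 1 for the 35 measured genes (rows) in 5 comparisons (columns), with colours ending at -2 and 2, grey for genes not tested and asterisks for genes called by limma (adjusted p under 0.05). Abcd3 carries an asterisk in all 5 columns, and most asterisks lie below the line that parts the peroxins from the lipid enzymes and transporters.

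Abcd3 was called in all 5 comparisons. It encodes the transporter PMP70, which carries branched-chain, dicarboxylic and bile acid precursor acyl-CoAs into the peroxisome, and lies at chr3:121758904-121815302 (GRCm38.p6). Acaa1b was called in 4, Slc27a2, Ehhadh, Hsd17b4 and Pex3 in 3, and Scp2 and Acot4 in 2. A further 8 members were called in 1 comparison, and 19 measured members in none.

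The upstream sequences of 5 of these genes are shown because they include a gene that fell most (Slc27a2), a gene with large falls (Ehhadh), the only gene that rose where others fell (Acot4), and a pair of near copies of which one was called and the other not (Acaa1b and Acaa1a). Each is the 120 bases before an annotated start, read 5′ to 3′ on the gene's strand. For Acaa1a and Acot4 that start is one of several, and the window lies inside the span of the gene given with its values. The bases just after the start occur in 1 of 10 transcript sequences of Acaa1a and 1 of 3 of Acot4. They occur in 1 of 4 of Slc27a2, 1 of 2 of Acaa1b and 0 of 1 of Ehhadh, so none of the 5 starts is settled. The sequences come from RefSeq (GRCm38.p6), which gave a start for 31 of the 36 members. Capitals mark CCAAT and the nuclear receptor motif AGGTCA on either strand.

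Slc27a2, chr2:126552904-126553023 (+): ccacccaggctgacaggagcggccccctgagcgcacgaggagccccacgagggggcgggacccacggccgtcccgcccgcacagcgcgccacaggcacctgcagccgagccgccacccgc
Ehhadh, chr16:21787835-21787954 (-): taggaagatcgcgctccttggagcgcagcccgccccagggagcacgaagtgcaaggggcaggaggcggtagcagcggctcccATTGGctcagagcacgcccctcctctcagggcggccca
Acaa1b, chr9:119157094-119157213 (-): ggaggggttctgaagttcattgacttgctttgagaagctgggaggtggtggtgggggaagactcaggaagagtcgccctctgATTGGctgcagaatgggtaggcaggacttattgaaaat
Acaa1a, chr9:119341174-119341293 (+): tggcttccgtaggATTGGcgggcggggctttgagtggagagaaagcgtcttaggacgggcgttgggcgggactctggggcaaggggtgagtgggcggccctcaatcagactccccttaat
Acot4, chr12:84038259-84038378 (+): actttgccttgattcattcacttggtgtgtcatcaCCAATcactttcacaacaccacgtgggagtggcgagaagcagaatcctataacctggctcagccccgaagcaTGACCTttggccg

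Among these windows, CCAAT on either strand was present in Ehhadh, Acaa1b, Acaa1a and Acot4 and not in Slc27a2, and AGGTCA only in Acot4. In the 250 bases before the start, searched on both strands, AGGTCA was present at 5 of 37 starts of the members (13.5%) and at 14.0% of 32851 starts of all genes. The 5 were those of Acot4, Cat, Pex11g, Scp2 and Slc27a2. The tandem form AGGTCANAGGTCA, which contains AGGTCA, was at 0 of the 37 starts and at 0.0335% of all. CCAAT was at 18 starts (48.6%) against 33.8% of all, and the GC box GGGCGG at 22 (59.5%) against 32.7%. The Bcl6 and STAT core TTCNNNGAA was at 1 start, that of Pex16 (2.7%), against 7.02% of all. These counts describe letters in a short window and say nothing of binding.

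Of the 2 measured ABC transporters of acyl-CoAs, Abcd3 and Abcd2, only Abcd3 was called. At P28 the 4 libraries at 22 C had 1114, 1228, 1144 and 1172 normalized counts of Abcd3 and the 4 at 30 C had 715, 785, 690.0 and 740.3. Every library at 30 C was below every library at 22 C, and Abcd3 fell by 0.67 (SE 0.06, limma adjusted p = 0.0017). In the TrkA table the same wild-type libraries stood at 983, 1074, 1014 and 1029 and the TrkA-flox Th-cre libraries at 705, 594, 684 and 452, a log2 fold change of -0.77 (SE 0.13, adjusted p = 0.0174). These groups did not overlap, and the lowest library was TrkA-flox Th-cre replicate 4.

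At P25, Abcd3 ranged from 2011 to 3217 (median 2561, n = 7) in Bcl6-flox and from 1576 to 2413 (median 1768, n = 8) in libraries labelled Prx1-cre. The groups overlapped only through the highest library labelled Prx1-cre, and Abcd3 fell by 0.48 (SE 0.10, adjusted p = 0.0131). At 9 weeks and 4 C its counts were 11013, 9467, 8637 and 8775 in Bcl6-flox and 4554, 5603, 6539 and 5226 in libraries labelled Prx1-cre. The groups were apart, with a log2 fold change of -0.79 (SE 0.12, adjusted p = 0.00491). In adult wild-type fat the direction was upward with cold: 1745, 1903, 1170.4 and 1495 at 22 C against 3129.8, 4958, 2788 and 2438 at 4 C. Abcd3 rose by 1.04 (SE 0.24, adjusted p = 0.048) without overlap.

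Its relative Abcd2, which carries very-long-chain and polyunsaturated acyl-CoAs, did not pass in any comparison. At 9 weeks its log2 fold change in libraries labelled Prx1-cre was 0.28, with a 95% interval from -0.15 to 0.70. At 30 C it was -0.39 (adjusted p = 0.0566).

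Slc27a2 showed the largest fold changes among the called members. It encodes a very-long-chain acyl-CoA synthetase and fatty acid transport protein, and lies at chr2:126553024-126588243. At P25 Slc27a2 ranged from 118 to 685 (median 366) in Bcl6-flox and from 19.0 to 167 (median 57.3) in libraries labelled Prx1-cre. The groups overlapped at their edges, and Slc27a2 fell by 2.46 (SE 0.47, adjusted p = 0.00619). At 9 weeks and 4 C, Bcl6-flox libraries held 1015, 950.5, 746 and 986 and the libraries labelled Prx1-cre 31.2, 95.7, 167 and 130.2. Each of the latter was well below each control, and Slc27a2 fell by 3.33 (SE 0.45, adjusted p = 0.00304).

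With adult cold Slc27a2 moved upward: it was 75.7, 128, 71.3 and 50.2 at 22 C and 345, 806, 250.2 and 196 at 4 C. The highest value was wild-type 4 C replicate 2, and Slc27a2 rose by 2.14 (SE 0.45, adjusted p = 0.0411). In young wild-type fat at 30 C its log2 fold change was -0.40 (adjusted p = 0.458), and in TrkA-flox Th-cre it was -1.08 (adjusted p = 0.222), both with overlapping libraries.

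**Figure D2:**
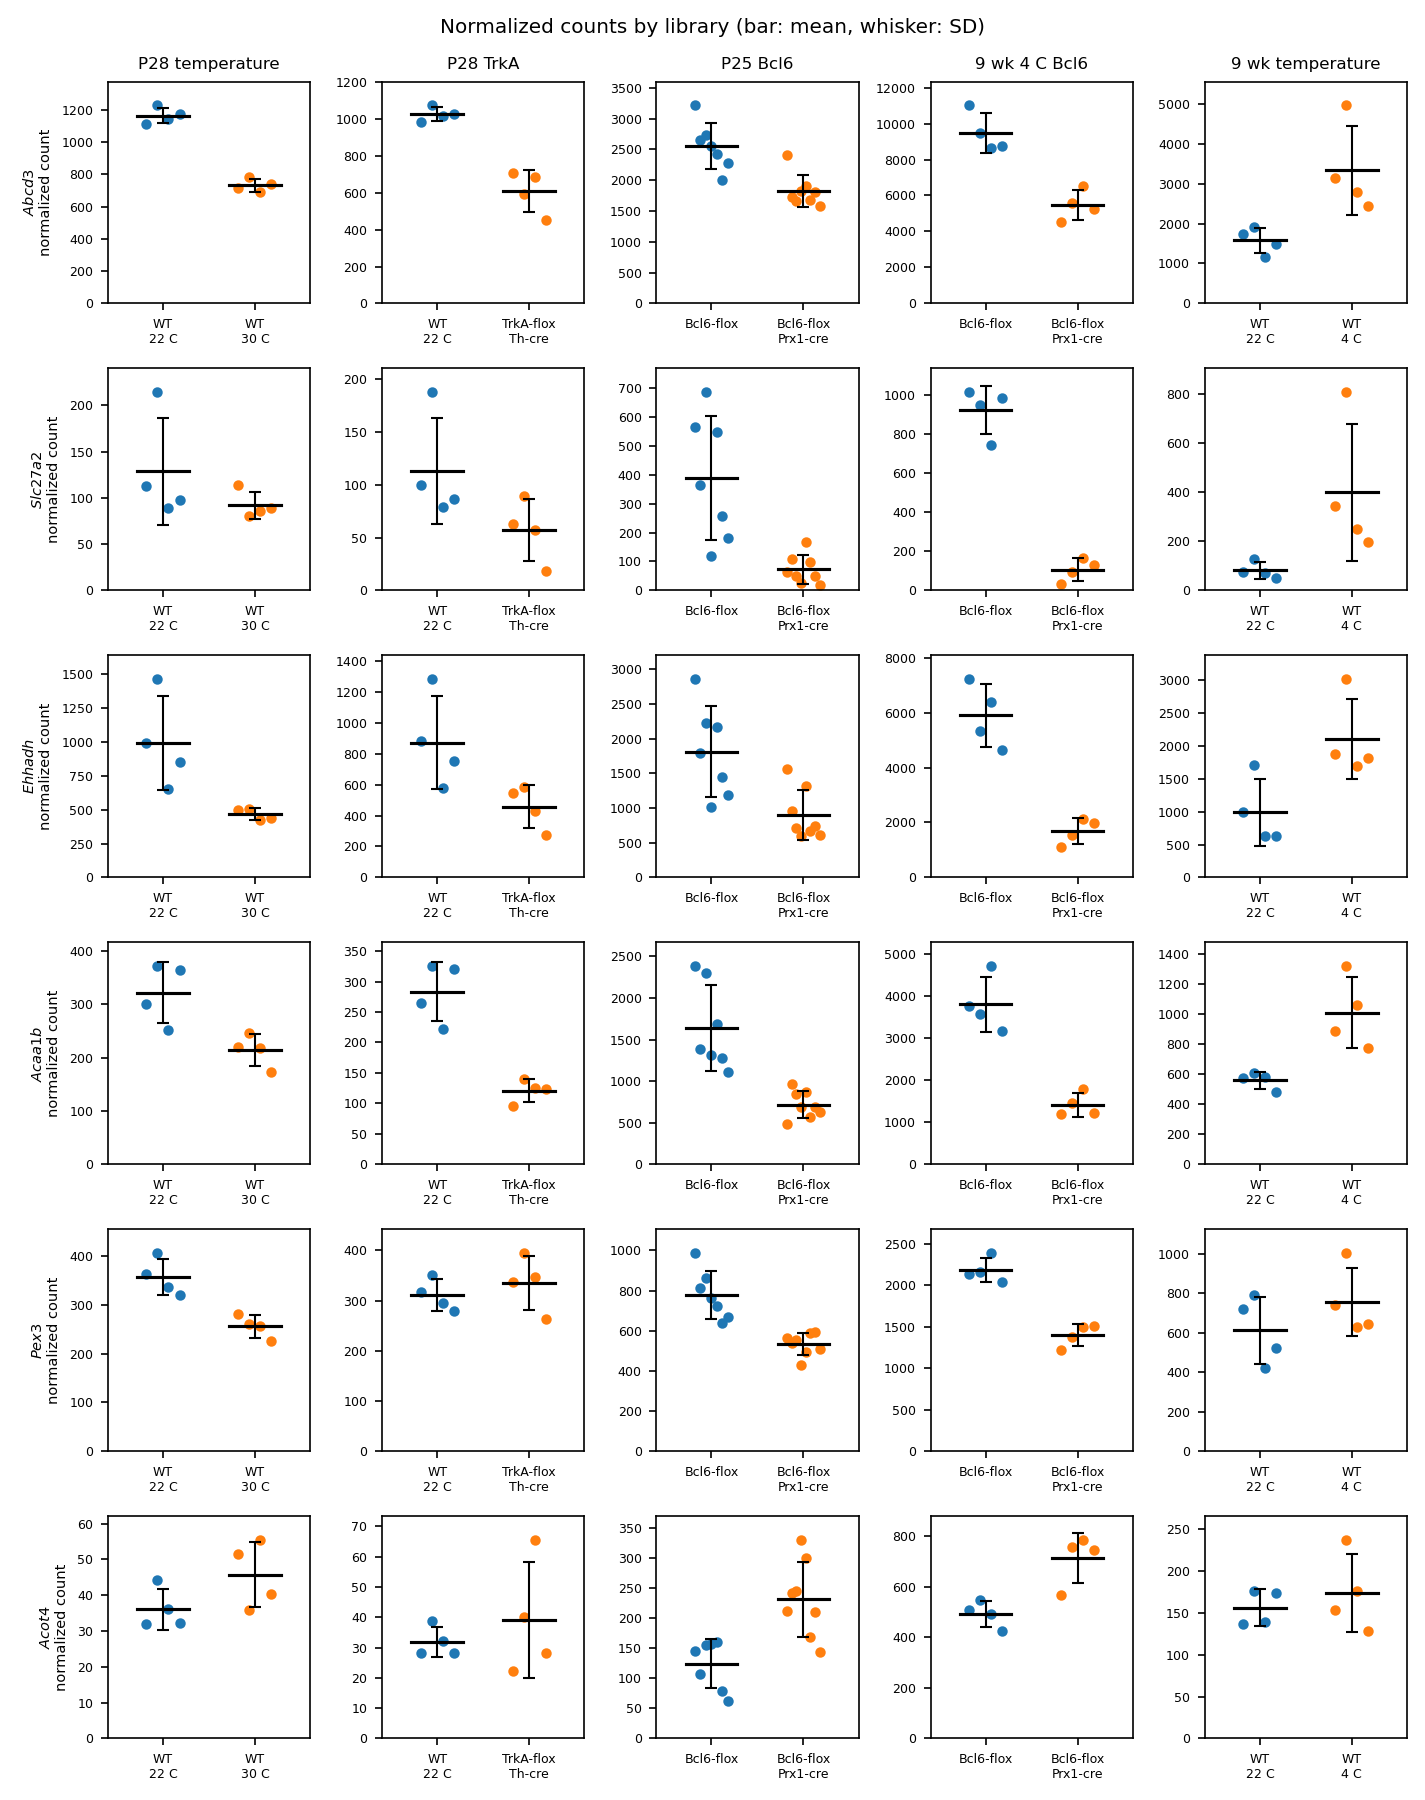
Normalized counts (vertical axes, starting at 0 and scaled for each panel) of 6 genes (rows) by library (points) in the 5 comparisons (columns); bars are means and whiskers SD, with blue for the reference group and orange for the other. Abcd3 and Acaa1b are lower in the orange group in the first 4 columns and higher in the last, and Acot4 is higher at P25 and 9 weeks in libraries labelled Prx1-cre.

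The β-oxidation spiral proper begins with the acyl-CoA oxidases, of which the members Acox2 and Acox3 act on bile acid precursors and branched chains. Acox3 was not called in any comparison, and its log2 fold changes ran from -0.10 in adult cold to 0.24 at 30 C. Acox2 was too low to test in both P28 tables and was not called elsewhere.

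Ehhadh encodes the L-bifunctional enzyme, which hydrates and dehydrogenates straight-chain and dicarboxylic acyl-CoAs, and lies at chr16:21761285-21787834. At P28 Ehhadh was 997, 1465, 652 and 853 at 22 C and 499.8, 508, 427 and 438 at 30 C. All 4 libraries at 30 C were below the lowest at 22 C, and Ehhadh fell by 1.02 (SE 0.21, adjusted p = 0.0305). At P25 it ranged from 1013 to 2858 (median 1793) in Bcl6-flox and from 592 to 1565 (median 726) in libraries labelled Prx1-cre. With that overlap Ehhadh fell by 1.02 (SE 0.25, adjusted p = 0.0332).

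At 9 weeks and 4 C Ehhadh stood at 7213, 5319, 6396 and 4653 in Bcl6-flox and at 1112, 1547, 2131 and 1978 in libraries labelled Prx1-cre, where it fell by 1.82 (SE 0.22, adjusted p = 0.00191). The groups were far apart. Among adult wild-type libraries the mean of Ehhadh was 991 ± 513 (SD, n = 4) at 22 C and 2105 ± 614 (n = 4) at 4 C, with overlap, and its log2 fold change of 1.18 did not pass (adjusted p = 0.0815). In TrkA-flox Th-cre it was -0.92 (adjusted p = 0.106).

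Hsd17b4 encodes the D-bifunctional enzyme, which takes the same steps for branched chains and bile acid precursors. Its changes were smaller than those of Ehhadh in each of the comparisons where both were called. At P28 Hsd17b4 was 1648, 1741, 1385 and 1633 at 22 C and 1009, 1006, 964 and 1116 at 30 C, a separation of the groups in which it fell by 0.64 (SE 0.08, adjusted p = 0.00499). At P25 it ranged from 3303 to 4196 (median 3633) against 2607 to 3461 (median 2812) in libraries labelled Prx1-cre, and fell by 0.35 (SE 0.07, adjusted p = 0.0115) with a slight overlap. At 9 weeks it was 13759, 12356, 15340.1 and 10742 against 9566, 9989.6, 9866 and 10094, and fell by 0.39 (SE 0.11, adjusted p = 0.0467). These groups did not overlap, and the libraries labelled Prx1-cre lay close together. In adult cold its log2 fold change of 0.68 did not pass (adjusted p = 0.0847).

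The last step is thiolysis, for which mice have a pair of genes, Acaa1a (chr9:119341028-119350296) and Acaa1b (chr9:119148043-119157093). Of the 1932 31-base words in Acaa1b transcripts 773 also occur in Acaa1a, whose transcripts hold 4576, so reads of the pair could be divided wrongly between them and their separate values are uncertain. Acaa1b in the wild-type P28 libraries of the TrkA table was 265, 325, 223 and 321, and in TrkA-flox Th-cre 95.6, 141, 125 and 123. Every TrkA-flox Th-cre library was below every control, and Acaa1b fell by 1.22 (SE 0.16, adjusted p = 0.00491).

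At P25 Acaa1b ranged from 1112 to 2383 (median 1388) in Bcl6-flox and from 490.4 to 973 (median 688) in libraries labelled Prx1-cre. The groups were apart and Acaa1b fell by 1.16 (SE 0.18, adjusted p = 0.00135). At 9 weeks and 4 C its counts were 3761, 3568, 4711 and 3168 against 1197, 1456, 1803 and 1212, a fall by 1.43 (SE 0.16, adjusted p = 0.00141). Adult cold took Acaa1b the other way: it was 573, 608, 579 and 480.0 at 22 C and 889, 1318, 1058 and 775 at 4 C, and rose by 0.83 (SE 0.17, adjusted p = 0.0378). At 30 C the groups did not overlap either, but its log2 fold change of -0.58 did not pass (adjusted p = 0.0641).

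Acaa1a was not called in any comparison. Its log2 fold changes were -0.08 at 30 C, -0.24 in TrkA-flox Th-cre, -0.28 at P25 and -0.24 at 9 weeks in libraries labelled Prx1-cre, and -0.07 in adult cold. The share of Acaa1b in the summed counts of the pair fell from a median of 27.9% in wild-type P28 fat to 16.6% in TrkA-flox Th-cre. It was 36.4% in Bcl6-flox and 26.7% in libraries labelled Prx1-cre at P25, and 38.3% and 21.1% at 9 weeks. At 22 C and 4 C in adult wild-type fat it was 23.4% and 37.8%. The groups overlapped only in the adult wild-type pair, where the highest library at 22 C (32.5%) exceeded the lowest at 4 C (32.3%). The difference between the genes of the pair was not tested.

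**Figure D3:**
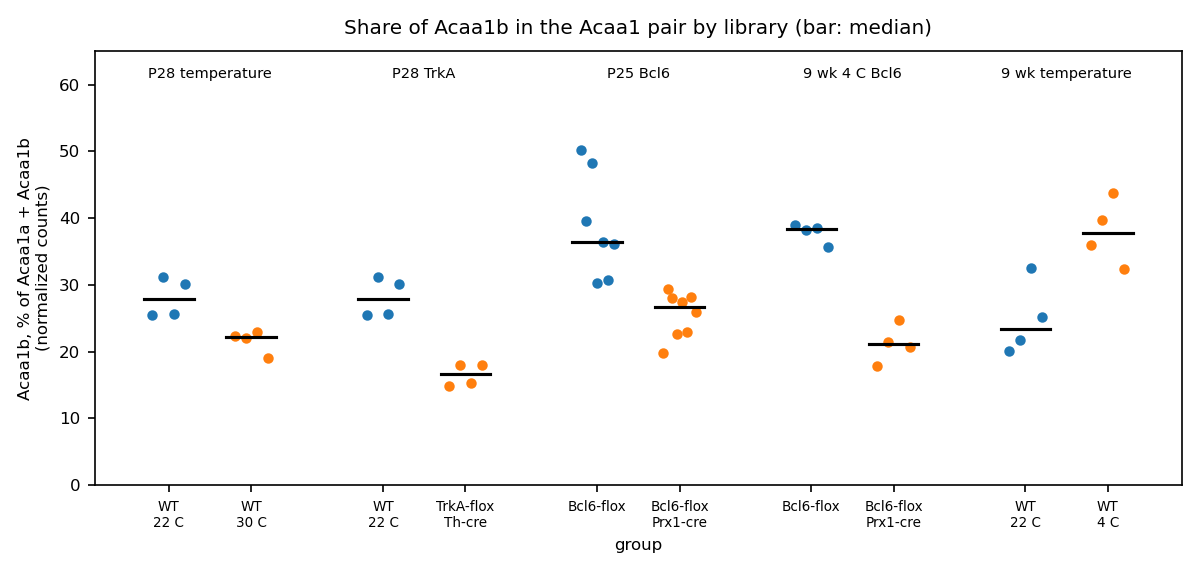
Normalized counts of Acaa1b as a percentage of Acaa1a plus Acaa1b (vertical axis) by library (points) in each group (horizontal axis), with bars at the group medians. TrkA-flox Th-cre libraries have a median of 16.6% against 27.9% in their wild-type controls.

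Scp2 encodes the sterol carrier protein thiolase, which cleaves branched chains. At P28 Scp2 was 4818, 5384, 4447 and 5072 at 22 C and 3623, 3774, 3823 and 4168 at 30 C, where it fell by 0.36 (SE 0.08, adjusted p = 0.0376) with no overlap. At P25 it ranged from 9176 to 17770.2 (median 13684) in Bcl6-flox and from 7610.0 to 10124 (median 9303) in libraries labelled Prx1-cre, and fell by 0.57 (SE 0.12, adjusted p = 0.0131). The overlap came from the lowest Bcl6-flox library.

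Auxiliary enzymes of unsaturated and branched acids changed little and in few comparisons. Amacr, the racemase that prepares methyl-branched acyl-CoAs, was 688, 628, 705 and 687 in Bcl6-flox and 444, 509, 526 and 428 in libraries labelled Prx1-cre at 9 weeks, and fell by 0.51 (SE 0.09, adjusted p = 0.00792). Eci2, an enoyl-CoA isomerase, was 4409, 4224, 5000.0 and 3814 against 2912, 3346, 3464 and 3509.7 and fell by 0.40 (SE 0.10, adjusted p = 0.0292). Neither gene's groups overlapped. Phyh, which hydroxylates phytanic acid for α-oxidation, was 1184, 1287, 1169.6 and 1249 at 22 C and 1067, 995, 997 and 1003 at 30 C, and fell by 0.27 (SE 0.06, adjusted p = 0.0312). That is the smallest of the 6 called changes at 30 C. Hacl1, the lyase that follows Phyh, and Decr2, a dienoyl-CoA reductase, were not called. Pecr was tested only in the tables of 9-week fat and was not called.

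Acyl-CoA release split in direction. Acot4, a thioesterase that frees succinate and other dicarboxylates at chr12:84037254-84044723, was the only called member that rose in a comparison of the libraries labelled Prx1-cre. At P25 Acot4 ranged from 62.0 to 161 (median 146) in Bcl6-flox and from 144 to 329.6 (median 227) in libraries labelled Prx1-cre, and rose by 0.93 (SE 0.23, adjusted p = 0.0342). At 9 weeks it was 509, 549, 491 and 425 against 567, 757, 785 and 746, and rose by 0.53 (SE 0.12, adjusted p = 0.0259) without overlap. The call of Acot4 was kept in 7 of 15 fits that left out a library at P25 and in 3 of 8 at 9 weeks. Among other settings, it was lost with the muscle score as a covariate in both comparisons. It was also lost with quantile normalization at P25 and the replicate block at 9 weeks. With a library left out, some falls were lost in part of the fits too. At P25 Ehhadh was kept in 6 of 15 and Pex26 in 5 of 15. At 9 weeks Hsd17b4 was kept in 2 of 8 and Eci2 in 4 of 8. Of the 31-base words in Acot4 transcripts, 4.84% are shared with Acot1, Acot2, Acot3 or Acot5. Acot8, a thioesterase of broad range, went the other way at 9 weeks: 633, 509.8, 548 and 508 against 325, 331, 348 and 303. The groups were apart, and Acot8 fell by 0.74 (SE 0.10, adjusted p = 0.00254). Crot, which passes shortened chains on as carnitine esters, was not called, with log2 fold changes from -0.15 to 0.13.

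The ether lipid enzymes Agps and Gnpat, which begin plasmalogen synthesis, were not called in any comparison. Cat encodes catalase, which breaks down hydrogen peroxide. At P25 Cat ranged from 10681 to 16769.7 (median 15332) in Bcl6-flox and from 8729 to 12029 (median 10506) in libraries labelled Prx1-cre, and fell by 0.49 (SE 0.11, adjusted p = 0.0152). The groups overlapped through the lowest Bcl6-flox library. In adult wild-type fat its mean was 9152 ± 1223 (SD, n = 4) at 22 C and 16056 ± 3094 (n = 4) at 4 C, without overlap, but the log2 fold change of 0.80 did not pass (adjusted p = 0.059).

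Among the 13 peroxins, Pex3 was the one called in more than 1 comparison. Pex3 encodes the membrane receptor that docks Pex19 with newly made membrane proteins, and lies at chr10:13523842-13553142. At P28 it was 363, 405, 336 and 320.5 at 22 C and 282, 259, 256 and 225 at 30 C, and fell by 0.48 (SE 0.10, adjusted p = 0.0296). At P25 it ranged from 640.1 to 986 (median 764) in Bcl6-flox and from 429 to 594 (median 546) in libraries labelled Prx1-cre, and fell by 0.54 (SE 0.10, adjusted p = 0.0042). No library of one group reached the range of the other in either comparison. At 9 weeks Pex3 was 2137, 2159, 2388 and 2042 against 1218, 1376, 1495 and 1505, and fell by 0.64 (SE 0.09, adjusted p = 0.00279), again without overlap. In adult cold its log2 fold change was 0.31 (adjusted p = 0.446), and in TrkA-flox Th-cre it was 0.10 (adjusted p = 0.722).

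Pex19, the carrier that Pex3 receives, and Pex16, its partner in the membrane, were not called. The log2 fold change of Pex16 at 30 C was -0.57 (adjusted p = 0.0801). In the import machinery, Pex6, an ATPase that pulls the import receptor back out of the membrane, was 3184, 3036, 3337 and 3267 in Bcl6-flox and 1992, 2272, 2731 and 2027 in libraries labelled Prx1-cre at 9 weeks. It fell by 0.52 (SE 0.10, adjusted p = 0.0124). Pex13, a docking protein for the import receptor, was 4833, 4506, 4863 and 4189.5 against 3287, 3809, 3717 and 3542, and fell by 0.36 (SE 0.07, adjusted p = 0.0157). Both were apart between the groups. Pex26, which anchors Pex6 to the membrane, ranged from 211 to 304 (median 235) in Bcl6-flox at P25 and from 159 to 221 (median 186) in libraries labelled Prx1-cre. With this overlap, Pex26 fell by 0.40 (SE 0.10, adjusted p = 0.0359).

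The import receptors Pex5 and Pex7, the ubiquitin ligases Pex2 and Pex10, the docking protein Pex14 and the elongation factors Pex11a and Pex11g were not called in any comparison. The nearest was Pex7 at 30 C, with a log2 fold change of -0.42 and an adjusted p of 0.0505. Fewer peroxisomes per cell, fewer fat cells of one kind and less RNA per cell cannot be told apart in bulk tissue.

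Set beside each other, the peroxins moved over a narrower range than the lipid genes. At 30 C the median log2 fold change of the 13 peroxins was -0.30 (range -0.57 to 0.06, 1 called) and that of the 20 tested lipid genes -0.17 (range -1.02 to 0.43, 5 called). In TrkA-flox Th-cre the medians were -0.13 (0 called) and 0.01 (2 called). In the libraries labelled Prx1-cre they were -0.31 (2 called) and -0.30 (8 of 21 called) at P25, and -0.30 (3 called) and -0.39 (9 of 22 called) at 9 weeks. All 13 peroxins had a negative value in both of these comparisons, as did 49.1% of all tested genes at P25 and 52.1% at 9 weeks. In adult cold the peroxin median was 0.31 (0 called) and the lipid gene median 0.59 (3 of 22 called). The median over all genes lay between -0.02 and 0.02 in these comparisons. The difference between the classes was not tested.

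The 19 genes of mitochondrial fatty acid oxidation gave a reference. At 30 C, 16 fell and 0 rose, with a median of -0.71. Among them were Acadm, which encodes the medium-chain dehydrogenase (-0.92), and Cpt2, the inner carnitine palmitoyltransferase (-0.76). In TrkA-flox Th-cre 1 fell, the thioesterase gene Acot11 (-1.59). In the libraries labelled Prx1-cre 14 fell at P25 (median -0.61) and 14 at 9 weeks (median -0.76). In adult cold 4 rose (median 0.88), led by Cpt1b, the muscle-type carnitine palmitoyltransferase (2.79). Of all genes, 3.17% fell at 30 C, 1.32% in TrkA-flox Th-cre, 1.97% at P25 and 5.46% at 9 weeks, and 2.03% rose in adult cold.

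**Figure D4:**
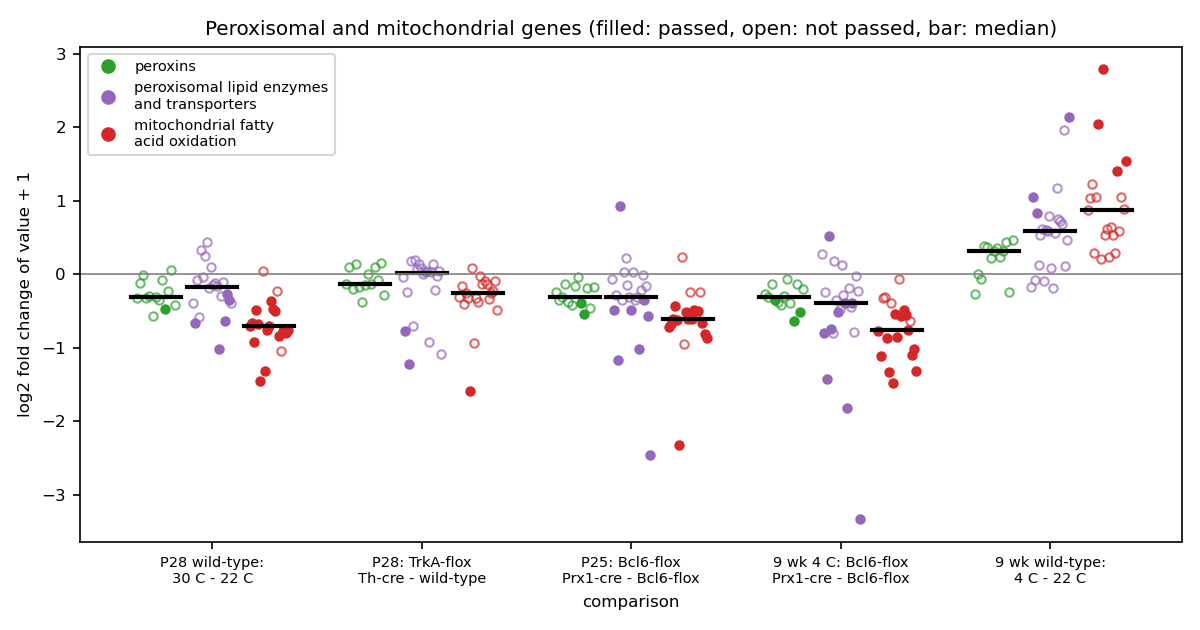
Log2 fold change of value + 1 (vertical axis) for the tested peroxins (green), peroxisomal lipid genes (purple) and mitochondrial fatty acid oxidation genes (red) in each comparison (horizontal axis); filled points were called by limma, open points were not, and bars are medians. The red median is the lowest of the 3 in the first 4 comparisons and the highest in the last.

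Other peroxisomal genes were counted from lists beyond the 36. Of 16 tested further lipid enzymes, 4 fell at 30 C, among them Nudt7, a CoA diphosphatase (-0.60), and Mlycd, the malonyl-CoA decarboxylase (-0.44). At P25, 5 of 16 fell in libraries labelled Prx1-cre, led by Crat, carnitine acetyltransferase (-0.97). At 9 weeks 8 of 18 fell, among them Crat (-1.03) and Ephx2, an epoxide hydrolase (-1.08). No gene of that list passed in TrkA-flox Th-cre or adult cold. Of all genes, 3.17% fell at 30 C, 1.97% at P25 and 5.46% at 9 weeks. Among further peroxins and division factors, Tysnd1, a peroxisomal protease, fell at P25 (-0.69) and at 9 weeks (-0.67) in libraries labelled Prx1-cre. Dnm1l, the fission dynamin, fell by 0.25 at 30 C.

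The comparisons of the libraries labelled Prx1-cre used separate samples at P25 and 9 weeks. Abcd3, Acaa1b, Acot4, Ehhadh, Hsd17b4, Pex3 and Slc27a2 were called in both, in the same direction each time. They are 70.0% of the 10 called at P25 and 58.3% of the 12 called at 9 weeks. The same share among all called genes is not given here, so this overlap cannot be read as particular to the members. Of all tested genes, 3.53% were called at P25 and 14.5% at 9 weeks. Over 34 members, the fold changes at the 2 ages had Pearson's r = 0.91 and Spearman's rho = 0.67, and over 12487 genes r was 0.66. The fold changes at 9 weeks in libraries labelled Prx1-cre and those of adult cold had r = -0.75 and rho = -0.64 over 35 members, with r = -0.34 over 12075 genes. These are correlations across genes, which are not independent replicates, and a few genes with large changes such as Slc27a2 weigh on r. The 30 C and TrkA comparisons share their controls, so a correlation between their fold changes was not computed.

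Other transcripts moved with several of these results. The summed counts of 8 skeletal muscle markers ran from 279 to 856 at 22 C and from 229 to 14641 at 30 C in P28 wild-type fat, with only replicate 3 at 30 C inside the range of the controls or below it. Set alone against 22 C, an alternative added after seeing the data, that library gave log2 fold changes of -0.75 for Abcd3, -0.73 for Hsd17b4 and -1.15 for Ehhadh, and no member passed. With the muscle score as a covariate, 2 of the 6 members remained called, Abcd3 (adjusted p = 0.019) and Hsd17b4 (adjusted p = 0.0332). The other 4 kept their direction, the median over the members was -0.28 where it was -0.27 without the covariate, and 93 genes passed in the whole table in place of 547. In TrkA-flox Th-cre the marker sum ran from 924 to 5344 against 248 to 762 in the controls. With that covariate 0 members passed, Acaa1b at -0.87 (adjusted p = 0.226) and Abcd3 at -0.98 (adjusted p = 0.145), and 21 genes passed in the whole table in place of 317.

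At 9 weeks, Bcl6-flox replicate 3 had a muscle sum of 472985 where the other 7 libraries had 142 to 20695. Without that library 15 members were called, including all 12, with 26.0% of all genes called. With the muscle score as a covariate 9 of the 12 remained called at 9 weeks, where Hsd17b4, Eci2 and Acot4 did not pass. That fit again called 12 members, some of them others, and 20.6% of all genes in place of 14.5%. At P25 the sums overlapped widely (229 to 70540 in libraries labelled Prx1-cre and 4382 to 34457 in Bcl6-flox). With the covariate 7 of the 10 remained called at P25, where Pex26, Ehhadh and Acot4 did not pass, and 2.58% of all genes in place of 3.53%. Summed counts of 8 macrophage markers were higher without overlap at 30 C (6052 to 7430 against 4231 to 5628), in TrkA-flox Th-cre (6503 to 7975 against 3750 to 4946) and at 9 weeks in libraries labelled Prx1-cre (17132 to 29480 against 9878 to 13531). In adult wild-type fat the summed counts of 4 Schwann cell markers were lower at 4 C (1257 to 1393 against 2776 to 3692), with 2 of the 4 called, and so were those of 4 endothelial markers (2367 to 3225 against 3495 to 3641), with 0 of 3 tested called. In TrkA-flox Th-cre the Schwann cell sum was 1243 to 1948 against 1892 to 3258 and the endothelial sum 2590 to 3035 against 3026 to 4048, each with a slight overlap and 0 genes called. The part of the macrophage, Schwann cell and endothelial transcripts in these results was not tested.

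The column codes at P25 start with M or F, and the 8 M columns were low and the 7 F columns high in Xist, the RNA of the inactive X chromosome. Within the M columns 1 of the 10 called members passed and within the F columns 0, with all 10 in the same direction in each, and with the letter as a covariate 10 passed. At P28, 2 of 4 wild-type libraries at 22 C, 3 of 4 at 30 C and 1 of 4 of TrkA-flox Th-cre were Xist-high. With Xist as a covariate 7 members passed at 30 C (4.32% of all genes), including the 6, and 2 in TrkA-flox Th-cre (2.25%). At 9 weeks and 4 C, all 4 Bcl6-flox libraries and all 4 labelled Prx1-cre were Xist-high. In adult wild-type fat each temperature had 2 Xist-low and 2 Xist-high libraries. Within the Xist-low libraries 2 members passed (8.84% of all genes), Abcd3 and Slc27a2. Within the Xist-high libraries 3 passed (3.18% of all genes), Abcd3, Slc27a2 and Ehhadh. With Xist as a covariate 14 passed (18.4% of all genes), all of them higher at 4 C. The called rises in adult cold rested on all 8 libraries. Leaving out any one of 7 libraries left 0 members called (0.292% to 2.91% of all genes). Leaving out wild-type 4 C replicate 4 left 1, Acaa1b (1.39% of all genes).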

How the data were processed

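Bulk RNA from frozen inguinal white adipose tissue was sequenced in 43 libraries made with a stranded mRNA kit, per the labels. The authors deposited 5 tables of normalized counts (a signal per gene and library, not whole reads), for which the submitters' processing notes name kallisto, DESeq2 and mm10, with no versions. Factors differed by gene: for the 4 libraries in both P28 tables, the ratio between tables ran from 0.384 to 2.5 (median 1.14). Each comparison was therefore made within its own table.

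Values were taken as log2(value + 1). A gene was tested where the number of libraries at 10 or more was no less than the size of the smaller group, and the test was limma 3.58.1 (R 4.3.3) with its mean-variance trend, without covariates, and p-values were Benjamini-Hochberg adjusted over all tested genes of the table at a threshold of 0.05. The fits were tested on simulated data. Per-library values are given for called members, other members by count, range or, for up to 6 per comparison, fold change, and up to 4 called genes with the smallest p from each further list. Pecr and Acox2, outside that rule, were named after their values were seen. Some genes are not reported here. The members and lists were chosen with earlier results of these data known. Symbols came from RefSeq, and 21 of 22622 identifiers matched none. The marker lists were adipocyte, skeletal muscle, macrophage, epithelium, lymphocyte, endothelium, hepatocyte and Schwann cell genes. Alternatives varied the scaling, pseudocount (0.5 and 5), filter (none, or a minimum of 50), library weights, covariates, the replicate block and each left-out library. The labels do not pair samples by replicate number. No table had every same-number correlation above 0.1, which cannot show that numbers share no factor. In adult wild-type fat these correlations were -0.26, 0.77, 0.50 and 0.51. There, replicates 1 and 2 were Xist-low and 3 and 4 Xist-high at both temperatures.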

Additional observations from a re-analysis of the deposited data

Results flagged for a closer look

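Outlying libraries were sought among called members in groups of 4 to 8 libraries, where chance marks about 1 group in 20, and 2 of 66 groups held one. Phyh in wild-type 30 C replicate 1 at P28 stood at 1067.35 normalized counts, above the other 3 libraries at 995 to 1003 and below every library at 22 C. Abcd3 in column M1 of the P25 libraries labelled Prx1-cre stood at 2413.38, far above the other 7 libraries of that group.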

How the results depend on the processing

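No called member changed direction under any alternative run. Each called member was counted once per comparison and setting. With planned or added settings other than leaving out a library, these calls stayed past the threshold 328 times and fell short 55 times. With a library left out they stayed 240 times and fell short 94 times. The share of all genes called in the same fit follows each count below. At 30 C the 6 called members (4.45%) became 11 with the stricter filter (6.42%), 15 with library weights (7.37%), 2 with the muscle covariate (0.757%) and 0 for replicate 3 alone (0.0693%). For TrkA-flox Th-cre the 2 (2.66%) became 0 with the muscle covariate (0.176%). At P25 the 10 (3.53%) became 1 in the M columns (0.88%) and 0 in the F columns alone (0.146%). At 9 weeks the 12 (14.5%) became 22 with library weights (35.4%). In adult cold the 3 (4.47%) became 5 with quantile normalization (6.11%), 5 with library weights (15.4%), 12 with the muscle covariate (15.7%), 14 with the Xist covariate (18.4%) and 8 with equal library totals (6.92%).

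Leaving out a library gave 2 to 13 called members at 30 C (1.41% to 5.74%) and 1 to 2 in TrkA-flox Th-cre (0.773% to 7.15%). It gave 7 to 15 at P25 (2.24% to 5.2%), 8 to 15 at 9 weeks (7.74% to 26%) and 0 to 1 in adult cold (0.292% to 2.91%). Kept in every such fit were 2 of the 6 calls at 30 C and 1 of 2 in TrkA-flox Th-cre. At P25 they were 7 of 10, at 9 weeks 8 of 12 and in adult cold 0 of 3. The member called in every such fit for TrkA-flox Th-cre was Acaa1b. The count was 1, with Abcd3 no longer called, without wild-type replicate 2 (0.835%), wild-type replicate 4 (0.773%) or TrkA-flox Th-cre replicate 2 (0.944%). At 30 C the count was 2 without 22 C replicate 1 or 4 (2.45% and 1.41%) or 30 C replicate 2 or 3 (2.33% and 2.55%). It was 3 without 22 C replicate 2 (1.6%) and 13 without 22 C replicate 3 (5.74%). Abcd3 and Hsd17b4 were called each time.

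With the replicate number as a block, 4 members were called at 30 C (1.92%), 3 in TrkA-flox Th-cre (2.16%), 9 at 9 weeks (8.68%) and 12 in adult cold (13.7%). The numbers do not pair the samples by the labels. At P25 no block could be fitted, because the column codes match no label number. The cause of these shifts was not tested. Read depth is not known from these values, and Acox2 and Pecr were too low to test in the P28 tables, and Pecr at P25.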

Other observations

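Of the 13 PPAR receptors, partners and coactivators, 1 passed at 30 C, against 4.45% of all genes, and 2 at P25, against 3.53%. With the label Prx1-cre at 9 weeks 3 passed, against 14.5%, and in adult cold 1, against 4.47%. Ppara, the receptor that many peroxisomal genes answer to, fell by 1.28 (limma adjusted p = 0.021) at 9 weeks with the label Prx1-cre, where Esrrg, an oestrogen-related receptor, fell by 0.81 and Rxrb, a partner receptor, fell by 0.21. At P25 Ppard rose by 0.38 and Ppargc1a, a coactivator of mitochondrial biogenesis, rose by 0.56. Esrra fell by 0.40 at 30 C and Esrrg rose by 1.72 in adult cold. By limma 0 passed in TrkA-flox Th-cre, against 2.66% of all genes.

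Of the PPAR-responsive genes outside the peroxisome, Vnn1, a pantetheinase, went against most of its list. It rose by 1.06 at 30 C, by 2.20 in TrkA-flox Th-cre and by 2.17 at 9 weeks with the label Prx1-cre, and fell by 1.72 in adult cold. Fabp3, a fatty acid binding protein of muscle and thermogenic fat, fell by 3.05 at 9 weeks with that label and rose by 5.92 in adult cold. The list had 5 falls of 13 tested at 30 C, 5 of 13 at P25 and 6 of 14 at 9 weeks. Of all genes, 3.17% fell at 30 C, 1.97% at P25 and 5.46% at 9 weeks. Among other peroxisomal oxidases and redox enzymes, Idh1, an NADPH-producing dehydrogenase, fell by 0.41 at 30 C, and Pipox, an oxidase of pipecolic acid, rose by 1.41 at 9 weeks with the label Prx1-cre.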
